A study of Mus musculus with 26 samples.

Results

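Lungs of mice carrying compound heterozygous mutations of the fibroblast growth factor receptor genes Fgfr3 and Fgfr4 (DHet) were compared with wild-type lungs (WT) at 28 days of age. The comparison rests on 3 DHet and 2 WT Affymetrix arrays, chosen by their titles, out of 26 arrays in the study. RNA from the lungs of 3 animals was pooled for each array. The other arrays hold double knockout lungs (DKO) of the same age, and WT, DHet and DKO lungs at 2 younger ages. Per the labels, the WT were C57BL6 mice matched for age, and tissue was frozen in liquid nitrogen. The strain background of the mutants, the kind of mutation in each receptor gene, the sex of the animals and the hour of harvest are not stated in the labels. The titles call the arrays biological replicates, so p-values here reflect how far pools differ, with single animals unseen.

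Fibroblast growth factors signal through receptor tyrosine kinases, and the receptors FGFR3 and FGFR4 have overlapping roles in the lung after birth. Mice lacking both receptors fail to divide their air spaces into alveoli by secondary septa, a step in which myofibroblasts lay down elastin, whereas mice lacking either receptor alone form alveoli. A compound heterozygote keeps a functional copy of each gene. The comparison therefore asks what a reduced dose of both receptors does to lung RNA at an age when most septa have formed.

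All values are log2 levels as deposited, so a difference of 1 is a doubling, and a difference is DHet minus WT unless stated. Of 45037 probe sets tested, 9 were called at an adjusted p below 0.05 (0.02%), 4 higher (0.00888%) and 5 lower (0.0111%) in DHet. The test was limma's moderated test in a fit of all 26 arrays, with Benjamini-Hochberg adjustment over all probe sets. At an unadjusted p below 0.05 there were 2525 probe sets (5.61%). Among the called probe sets, 7 name a gene: Cd209a, Mgl2, Cd209b, Npas2 and Sptlc1 were lower, and Wdfy1 and Abhd1 were higher. In DKO lungs of the same age, 582 probe sets were called against the same WT arrays (1.29%). Another description, used for gene lists, counted probe sets whose arrays did not overlap between groups and whose means differed by at least 0.5, called "set apart" here. Arrays did not overlap for 9415 probe sets (20.9%), among them all 9 called. Both conditions held for 257 (0.571%), 106 higher (0.235%) and 151 lower (0.335%).

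The arrays resembled each other closely in their whole profile, with array medians of 5.84 to 5.89 and correlations over probe sets of 0.9919 to 0.9963 between DHet and WT arrays. The pools differed in other respects. The mean of 9 Y-linked probe sets was 4.54 and 5.22 in WT against 3.71, 3.82 and 4.64 in DHet, and Xist, expressed from the inactive X chromosome of females, stood at 10.11 and 9.67 in WT against 10.46, 10.93 and 10.18 in DHet. DHet arrays 1 and 2 thus carried the lowest Y-linked levels of the 28-day set. WT array 2 stood apart in the levels of other tissues: the mean of 17 heart muscle genes was 7.09 there, 7.87 in WT array 1 and 7.68 to 7.77 in DHet, and the mean of 15 club and secretory cell genes was 9.83, 10.42 and 10.49 to 10.68. Only Cd209a was called with every single array left out in turn and with the Y-linked level as a covariate. Without WT array 1 there were 46 calls, including all 9, and without WT array 2 there were 4. Leaving out DHet array 3 or array 2 left 1 and 2 calls, and with the Y-linked level as a covariate there was 1. No probe set was called in a fit of the 5 arrays alone by limma, where 2427 had an unadjusted p below 0.05. Cd209a was also not called with DHet represented by array 3 alone.

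The mutated receptors were read first. Fgfr3 (probe set 1421841_at) stood at 9.94 and 10.27 in the WT arrays, at 9.59, 9.59 and 9.68 in DHet, and at 9.03, 9.07 and 9.01 in DKO. The 3 genotypes did not overlap, and DHet lay between WT and DKO. The DHet difference was -0.49 ± 0.145 (SE), with an unadjusted p of 0.00266 and an adjusted p of 0.557 by limma. The DKO difference from the same WT arrays was -1.07, with an adjusted p of 0.000251. Another Fgfr3 probe set, 1425796_a_at, showed no such step in DHet (-0.07, adjusted p = 0.998) and was 6.36 to 6.81 in DKO against 7.32 and 7.49 in WT. None of the 5 Fgfr4 probe sets was called, with differences from -0.15 to 0.21. The main one, 1418596_at, stood at 8.28 and 8.10 in WT, at 8.28, 8.25 and 8.27 in DHet, and did not differ in DKO either (0.02, adjusted p = 0.983). Where the probes lie relative to the mutated parts of the genes is not stated in the labels, so an Fgfr4 level checks nothing about the genotype.

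The rest of the fibroblast growth factor pathway held no call. Among 10 receptors and co-receptors no gene was called or set apart, and the median difference was 0.07, beside 0.02 over all 18193 genes. In counts over gene lists each gene is read on its brightest probe set on average, and genes named for themselves mostly on the probe set with the smallest p. Over all genes 3 were called (0.0165%), 42 set apart higher (0.231%) and 64 lower (0.352%). At an unadjusted p below 0.05, 632 genes were higher and 432 lower. Fgfr2, the main epithelial receptor of lung branching, differed by 0.15 and Fgfr1 by 0.08. The 16 ligands measured had a median of 0.04, and the 19 of 21 relay, feedback and target genes measured had a median of 0.02. Etv4 and Spry1, transcriptional targets of the pathway, differed by 0.19 and 0.09, and Spred1, an inhibitor of the same cascade, by -0.21. None of these differences passed the test.

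Of the 5 genes called lower, 3 encode C-type lectins, receptors for sugar chains found on dendritic cells and macrophages. Cd209a, a mouse relative of human DC-SIGN carried by monocyte-derived dendritic cells, stood at 8.22 and 8.74 in WT and at 7.05, 7.18 and 7.40 in DHet (probe set 1426172_a_at). Its DKO arrays stood at 6.46, 6.81 and 7.09, so each mutant array lay below both WT arrays. The DHet level was 2.42-fold lower, a difference of -1.27 ± 0.145 (SE) with an adjusted p of 0.000455 by limma. It was -1.23 with the Y-linked level as a covariate (adjusted p = 0.0168) and -1.01 without WT array 2 (adjusted p = 0.0470). In DKO the difference from the same WT arrays was -1.69.

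Mgl2, a galactose-binding lectin of dendritic cells and alternatively activated macrophages, stood at 7.88 and 8.34 in WT and at 7.29, 7.26 and 7.48 in DHet. The groups did not overlap, and the DHet level was 1.71-fold lower (-0.77 ± 0.133 SE, adjusted p = 0.0409 by limma). The adjusted p was 0.853 without WT array 2, the array with the higher level. Cd209b, which encodes the related lectin SIGNR1, stood at 4.60 and 4.96 in WT against 4.36, 4.14 and 4.19 in DHet on probe set 1456895_at, close to the low end of the scale. It was 1.47-fold lower (-0.55 ± 0.0945 SE, adjusted p = 0.0409), and 0.851 was the adjusted p without WT array 2. A brighter Cd209b probe set, 1426157_a_at, gave 5.97 and 5.82 against 5.13, 5.52 and 5.42, a difference of nearly the same size (-0.53) that was not called (adjusted p = 0.141). In whole lung, fewer cells of a type and less RNA per cell cannot be told apart.

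**Figure D1:**
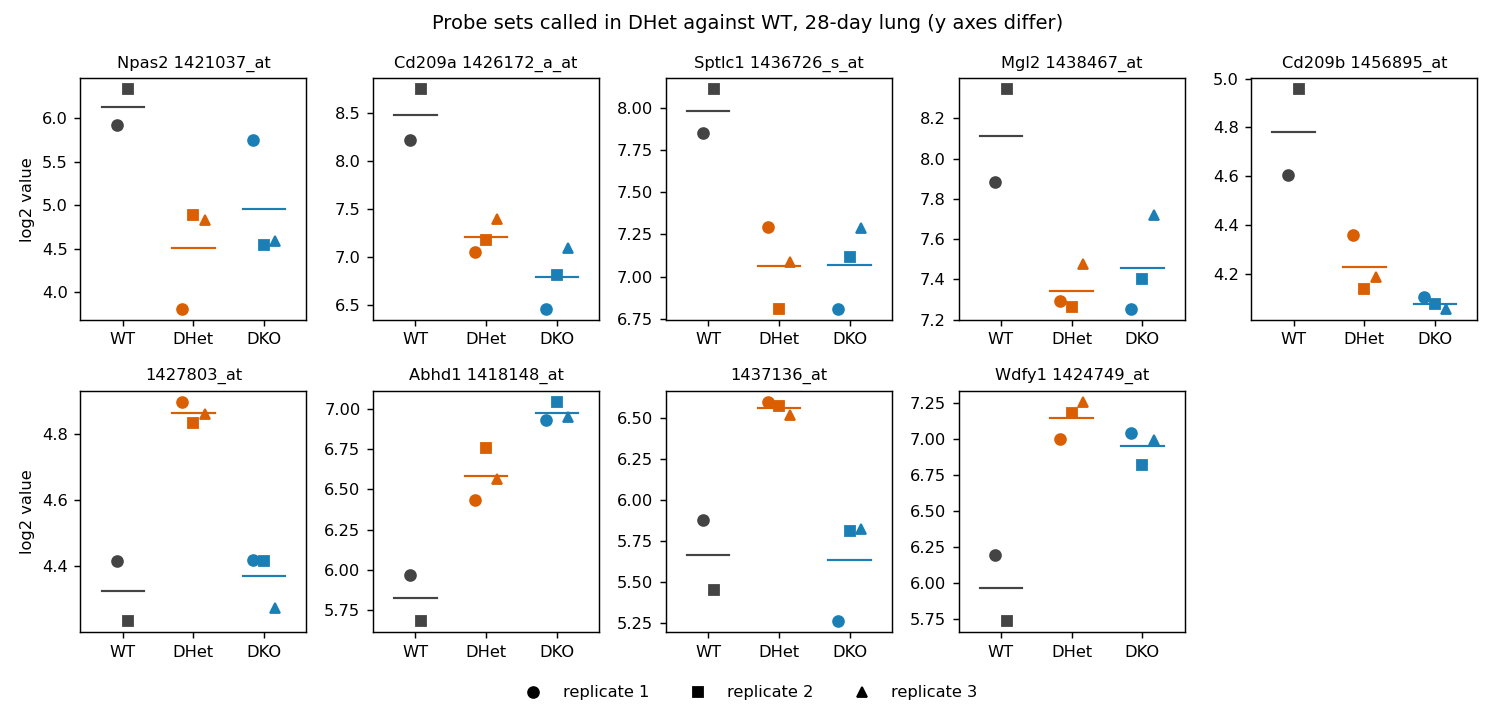
Log2 level of each of the 9 called probe sets in every 28-day array of WT, DHet and DKO lung; horizontal lines are group means and each panel has its own scale. No DHet array overlaps a WT array in any panel, while DKO lies with DHet in most panels and with WT for 1427803_at and 1437136_at.

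Other antigen presentation genes lay lower in DHet by smaller amounts that were not called. Of 14 dendritic cell and MHC class II genes measured, 1 was called (Cd209a), and the median difference was -0.23. At an unadjusted p below 0.05, 7 were lower in DHet and 1 higher, beside 432 and 632 of all 18193 genes. H2-Ab1, a chain of the class II molecule, stood at 10.82 and 10.99 in WT and at 10.52, 10.51 and 10.59 in DHet (-0.37, adjusted p = 0.615). H2-Eb1, a chain of the other class II molecule, stood at 10.97 and 11.09 against 10.79, 10.63 and 10.78 (-0.29, adjusted p = 0.720). Both sets of arrays were free of overlap. Cd74, the invariant chain, differed by -0.15, and Xcr1, a marker of cross-presenting dendritic cells, by 0.01, so the members did not lie lower throughout. The median was -0.12 without WT array 2 and -0.30 without WT array 1.

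Macrophage and type 2 immune genes held few differences besides. Among 18 macrophage genes none was called, and the median was -0.09 in DHet, where it was 0.43 for DKO against the same WT. Among 19 type 2 response genes, Mgl2 alone was called, and the median was -0.03 in DHet beside 0.25 in DKO. Clca1, a secreted product of mucous airway cells, had a mean of 5.72 in DHet and 5.47 in WT, while in DKO it was 10.4.

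Npas2, a partner of BMAL1 that can stand in for CLOCK in the circadian clock, had the largest called difference. It stood at 5.92 and 6.33 in WT and at 3.81, 4.89 and 4.84 in DHet on probe set 1421037_at, 3.07-fold lower (-1.62 ± 0.282 SE, adjusted p = 0.0409 by limma). The arrays did not overlap, and DHet array 1 was the lowest of the 28-day set. In DKO, array 1 was near WT at 5.75 and arrays 2 and 3 stood at 4.54 and 4.59. Another Npas2 probe set, 1421036_at, was lower in each DHet array by less (5.94 and 5.96 against 5.34, 5.76 and 5.48, a difference of -0.42, adjusted p = 0.515). The call was lost without WT array 2 (adjusted p = 0.598) and without any DHet array (0.0526 to 0.125).

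The clock runs as a loop in which BMAL1 with CLOCK or NPAS2 activates the Per, Cry and Nr1d genes, whose products repress that pair in turn. BMAL1 dimers bind the E-box CACGTG, the Nr1d and ROR receptors bind the element AGGTCA, and the proteins of Dbp, Tef and Hlf bind the D-box TTATGTAA. These letters were looked for on both strands in the 250 bases before each transcription start in RefSeq windows of build GRCm38.p6, where matches of different motifs could overlap. The windows are shown because some genes of the positive and the negative limb of the clock lay on opposite sides of WT. Of 16 clock genes, 14 had a window, 19 windows in all, with an E-box at 5 genes, an AGGTCA at 3 and a D-box at 1. Among all 32851 windows, 6.02% held the E-box, 14% the AGGTCA element and 0.819% the D-box. The clock counts are by gene, over any of its windows, and these shares are by window, so the units differ. A match describes letters and not a bound site. In the 4 windows below, each written along the gene's own strand, capitals mark a match: D-boxes 205 and 158 bases before the start of Per3, an AGGTCA 77 bases before Nr1d2, an E-box 127 bases before the more upstream start of Tef, and no match at Npas2. They lie at chr4:151044666-151044915 (minus strand), chr14:18239107-18239356 (minus strand), chr15:81802423-81802672 (plus strand) and chr1:39194022-39194271 (plus strand).
Per3: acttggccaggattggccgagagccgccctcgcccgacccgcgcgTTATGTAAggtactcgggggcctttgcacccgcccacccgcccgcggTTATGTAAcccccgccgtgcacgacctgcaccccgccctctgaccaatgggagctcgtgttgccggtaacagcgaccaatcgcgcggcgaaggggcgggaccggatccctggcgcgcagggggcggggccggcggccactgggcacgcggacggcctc
Nr1d2: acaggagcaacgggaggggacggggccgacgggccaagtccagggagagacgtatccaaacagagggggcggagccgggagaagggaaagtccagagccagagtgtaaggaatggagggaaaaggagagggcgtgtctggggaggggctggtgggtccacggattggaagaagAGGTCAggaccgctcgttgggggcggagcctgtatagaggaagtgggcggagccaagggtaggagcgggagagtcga
Tef: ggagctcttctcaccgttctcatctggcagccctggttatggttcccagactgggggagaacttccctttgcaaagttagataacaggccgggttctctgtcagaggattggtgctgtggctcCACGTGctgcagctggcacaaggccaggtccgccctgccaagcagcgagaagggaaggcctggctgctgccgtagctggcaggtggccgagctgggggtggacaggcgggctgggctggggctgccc
Npas2: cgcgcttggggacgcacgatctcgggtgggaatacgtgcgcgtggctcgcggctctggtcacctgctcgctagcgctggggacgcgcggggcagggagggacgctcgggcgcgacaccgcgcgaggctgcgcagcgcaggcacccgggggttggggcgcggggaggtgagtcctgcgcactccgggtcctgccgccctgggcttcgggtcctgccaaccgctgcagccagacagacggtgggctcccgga

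Some clock genes of the 2 limbs lay on opposite sides of WT, and none of the 16 was called on its representative probe set. Set apart higher were 5 (Nr1d2, Tef, Per3, Nr1d1 and Per1), beside 0.231% of all genes. Set apart lower was 1 (Arntl, which encodes BMAL1), beside 0.352%. At an unadjusted p below 0.05, 6 were higher and 4 lower, beside 632 and 432 of all 18193 genes. The 4 include a gene other than Arntl, Clock and Npas2, so the split by limb did not cover every member. The median difference was 0.43. Nr1d2, a repressor of Arntl, stood at 9.82 and 9.90 in WT and at 11.00, 10.35 and 10.61 in DHet (0.80, adjusted p = 0.436). Arntl stood at 8.11 and 8.46 in WT and at 6.35, 7.95 and 7.64 in DHet (-0.97, adjusted p = 0.688). DHet array 1 was the extreme array for both, and DHet array 2 was the nearest to WT.

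Tef, Per3 and Nr1d1 also lay above WT in every DHet array, while Dbp did not. Tef, whose protein activates through D-boxes, stood at 7.65 and 7.52 against 8.90, 8.14 and 8.27 (probe set 1450184_s_at, 0.85, adjusted p = 0.551). Per3 stood at 6.89 and 6.21 against 7.70, 7.04 and 7.21 (probe set 1441445_at, 0.77, adjusted p = 0.422), and 5 of its 6 probe sets differed by 0.40 or more. Nr1d1 stood at 8.44 and 8.22 against 9.28, 9.11 and 8.87 (0.76, adjusted p = 0.710). Dbp, named after its values were seen, spanned 7.54 to 8.87 in WT and 8.38 to 10.42 in DHet, so its arrays overlapped. The list's median was 0.25 without WT array 2 or without DHet array 1, and 0.60 without WT array 1. The hour of harvest was not given in the labels, and its part in these values was not tested.

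**Figure D2:**
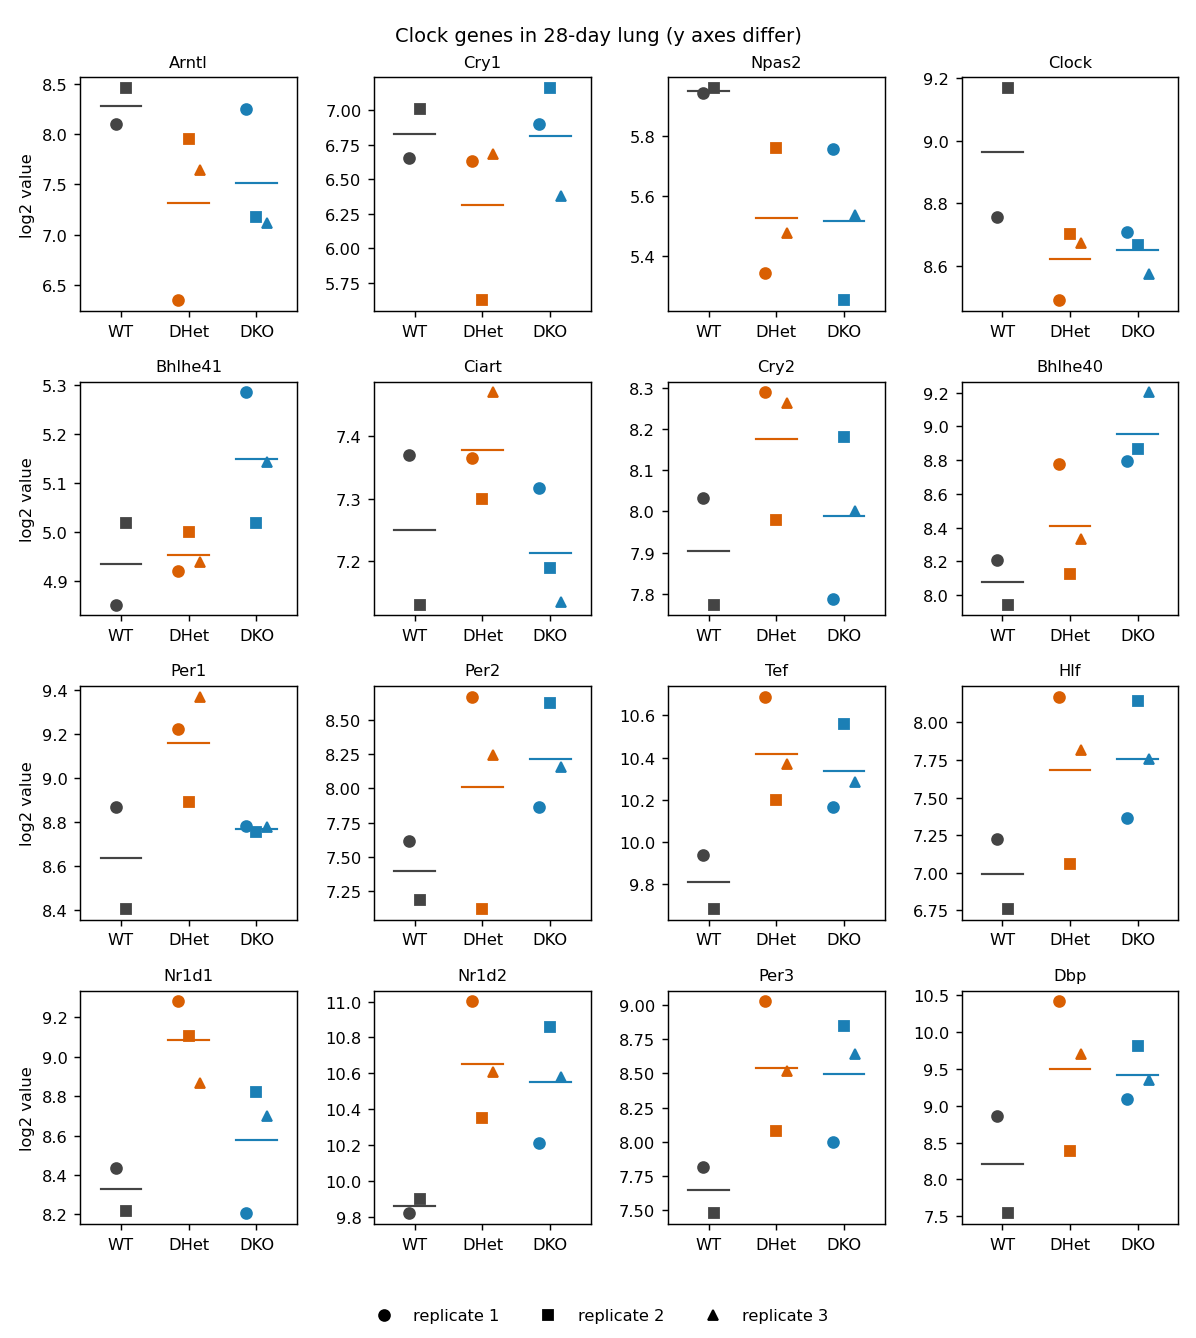
Log2 level of the 16 clock genes, each on its brightest probe set, in every 28-day array; lines are group means and each panel has its own scale. Arntl, Npas2 and Clock lie below WT in DHet and Nr1d1, Nr1d2, Per3 and Tef above. DHet array 1 is farthest out for Arntl, Npas2, Nr1d1, Nr1d2 and Per3.

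Wdfy1, which encodes an endosomal adaptor of Toll-like receptor signalling, was the called gene with the largest increase. It stood at 6.19 and 5.73 in WT and rose to 7.0, 7.19 and 7.26 in DHet (probe set 1424749_at), 2.27-fold (1.19 ± 0.194 SE, adjusted p = 0.0302 by limma). DKO arrays stood at 7.04, 6.82 and 6.99, on the level of DHet. Probe sets 1437358_at and 1435588_at differed by 1.10 and 0.84 without a call, and the remaining pair by 0.37 and 0.11. Wdfy1 was also on a list of 7 measured genes whose levels vary between inbred strains, and the strain of the mutants is not stated. The part of strain in its level was not tested. Its adjusted p was 0.584 without WT array 2.

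Abhd1 and Sptlc1 lie near the mutated genes. Abhd1, which encodes a hydrolase-fold protein and starts 2.77 Mb from Fgfr3, stood at 5.97 and 5.68 in WT and at 6.44, 6.76 and 6.56 in DHet, 1.69-fold higher (0.76 ± 0.111 SE, adjusted p = 0.0154 by limma). DKO arrays were higher still, at 6.93, 7.04 and 6.95, a difference of 1.15 from the same WT, so the levels stepped up from WT to DHet to DKO with no overlap. Sptlc1, a subunit of the enzyme that starts sphingolipid synthesis, begins 1.82 Mb from Fgfr4. It stood at 7.85 and 8.11 in WT and at 7.29, 6.81 and 7.08 in DHet on probe set 1436726_s_at, 1.89-fold lower (-0.92 ± 0.147 SE, adjusted p = 0.0257). Its other 3 probe sets, including 1422690_at at 9.33 and above in all arrays, differed by -0.02 to 0.08, so the difference belonged to a single probe set. Without WT array 2 the adjusted p was 0.433 for Abhd1 and 0.485 for Sptlc1.

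Chromosome neighbours of both receptor genes were counted because alleles linked to a targeted gene can travel with it. Within 5 Mb of Fgfr3 lay 280 probe sets, of which 1 was called and 1.43% were set apart, beside 0.571% of all probe sets. Within 20 Mb it was 0.758% of 528. Within 5 Mb of Fgfr4 lay 212 probe sets, of which 1 was called and 1.89% were set apart, and within 20 Mb it was 1.34% of 597. These shares rest on 4 probe sets in each 5 Mb window. Close to Fgfr3, Ppp1cb, a catalytic subunit of protein phosphatase 1, differed by 0.57 in DHet and 1.00 in DKO. Spon2, a secreted matrix protein gene, differed by -0.99 in DHet and -0.42 in DKO. The origin of the flanking sequence was not given, and its part was not tested.

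**Figure D3:**
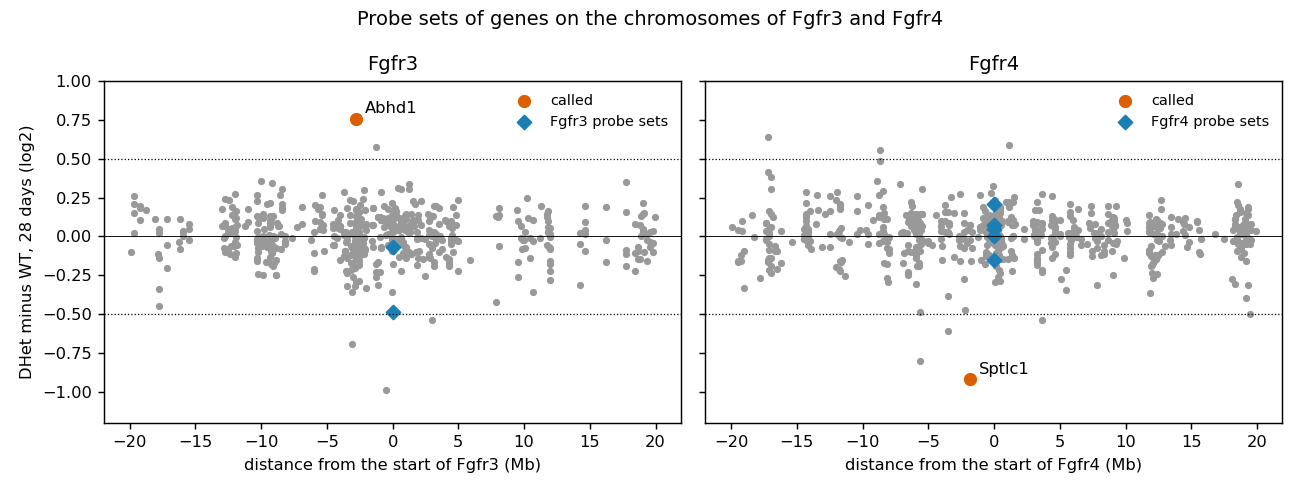
DHet minus WT difference (log2) of each probe set against the distance of its gene's start from Fgfr3 (left) or Fgfr4 (right) in Mb; dotted lines mark 0.5 in either direction. Abhd1 at 0.76 and Sptlc1 at -0.92 are the called neighbours, and most other points lie within 0.5 of zero.

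The remaining called probe sets name no gene in the annotation used. Probe set 1437136_at stood at 5.88 and 5.45 in WT and at 6.60, 6.58 and 6.52 in DHet, 1.87-fold higher (0.90 ± 0.154 SE, adjusted p = 0.0409 by limma). Probe set 1427803_at stood at 4.42 and 4.23 against 4.90, 4.83 and 4.86, 1.45-fold higher (0.54 ± 0.0840 SE, adjusted p = 0.0256). Both were higher in DHet only: DKO arrays stood at 5.26 to 5.82 and at 4.27 to 4.42. DHet also lay above the midpoint of WT and DKO on both, with adjusted p of 0.000571 and 0.000428.

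Larger differences than these stayed short of a call where the WT arrays disagreed. Bpifa1, a secreted defence protein of the upper airway, stood at 9.16 in WT array 1 and 4.90 in WT array 2, and at 9.64, 10.77 and 9.41 in DHet (2.91, adjusted p = 0.426). The difference was 5.04 without WT array 1 (adjusted p = 0.000434) and 0.77 without WT array 2. Sult1d1, a sulfotransferase, stood at 6.47 and 5.16 against 7.06, 7.28 and 6.66 (1.18, adjusted p = 0.157). Its difference was 1.83 without WT array 1 and 0.53 without WT array 2. Both were lowest in WT array 2, where the mean of the club and secretory list was also low. Bpifa1 is a member of that list, so its agreement with the list is partly built in. The ciliated list differed less between the WT arrays (7.25 and 7.18). The part of WT array 2 in either gene was not tested. Car3, a carbonic anhydrase abundant in fat and muscle, stood at 8.03 and 7.39 against 8.47, 9.23 and 9.25 (1.27, adjusted p = 0.264).

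Lrat, which stores retinol as esters, came closest to a call among the others named. It stood at 5.74 and 5.40 in WT and at 6.49, 5.86 and 6.57 in DHet on probe set 1421345_at (0.74, adjusted p = 0.0943). That probe set was called without DHet array 2 (0.96, adjusted p = 0.000349). It differed by 1.00 with DHet represented by array 3 alone and by 0.57 without WT array 2. In DKO it differed by -0.06 from the same WT. The brighter Lrat probe set 1444487_at stood at 8.87 and 8.30 in WT and at 9.46, 8.89 and 9.69 in DHet, a difference of similar size (0.77, adjusted p = 0.422). There DKO differed by -0.69 (adjusted p = 0.0959), so the probe sets disagree on DKO. On the lower side, the zinc finger gene Zkscan3 stood at 9.52 and 9.57 in WT and at 8.81, 8.70 and 8.66 in DHet (-0.82, adjusted p = 0.264), a step as wide as many called ones and without overlap. Cryl1, Pik3cd, E2f5, Aif1l and Mex3b lay lower by 0.84 to 1.74 with adjusted p of 0.426 to 0.632.

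Cell division genes had the lowest list median in DHet after the sex-linked genes (-0.78), although no member was called. Of 27 measured, 7 were set apart lower and none higher, beside 0.352% and 0.231% of all genes. At an unadjusted p below 0.05, 16 were lower and none higher, beside 432 and 632 of all 18193 genes. The median difference was -0.49. The mean level of the list was 6.57 and 7.03 in WT, 6.39, 6.17 and 6.55 in DHet, and 7.18, 6.84 and 7.03 in DKO. The highest DHet array thus lay just under the lower WT array. Cdc20, the activator of the anaphase-promoting complex, stood at 8.05 and 8.21 in WT and at 7.64, 7.30 and 7.77 in DHet (-0.56, adjusted p = 0.377). Ccnb2, a mitotic cyclin, stood at 6.88 and 7.32 against 6.31, 6.12 and 6.72 (-0.71, adjusted p = 0.461). Cenpf, a kinetochore protein, stood at 6.04 and 6.76 against 5.71, 5.43 and 6.04, so that a DHet array reached the WT level. Members of one list share the same arrays and are not independent. The median was -0.24 without WT array 2, -0.72 without WT array 1, -0.44 with the Y-linked level as a covariate and -0.30 with DHet represented by array 3.

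Elastic fibre genes, the products of septal myofibroblasts, held no call against WT. Of 18 measured, Eln was set apart lower, beside 0.352% of all genes, and the median was -0.09. At an unadjusted p below 0.05, 3 were lower (Eln, Emilin1 and Mfap5) and none higher, beside 432 and 632 of all 18193 genes. Eln, which encodes tropoelastin, stood at 12.13 and 12.68 in WT, at 11.64, 12.05 and 11.90 in DHet and at 12.65, 12.46 and 12.60 in DKO. The difference was -0.54 ± 0.140 (SE), with an adjusted p of 0.422 by limma. It was -0.82 without WT array 1 and -0.26 without WT array 2. All DHet arrays thus lay below the WT and DKO arrays, and the other Eln probe set differed by -0.65 (adjusted p = 0.615). Igf1, a growth factor made by lung mesenchyme, lay lower on each of 4 probe sets by 0.16 to 0.55 with no call. Collagen and matrix genes had a median of -0.03 over 26 genes, and matrix proteases and their inhibitors 0.01 over 17. Markers of smooth muscle and myofibroblasts did not lie lower as a list, with a median of 0.20 over 16 genes. Their mean was 9.11 and 8.87 in WT and 9.05, 9.20 and 9.10 in DHet, so WT array 1 lay within the DHet range. None of the 16 was called, and 2 were higher and 0 lower at an unadjusted p below 0.05.

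**Figure D4:**
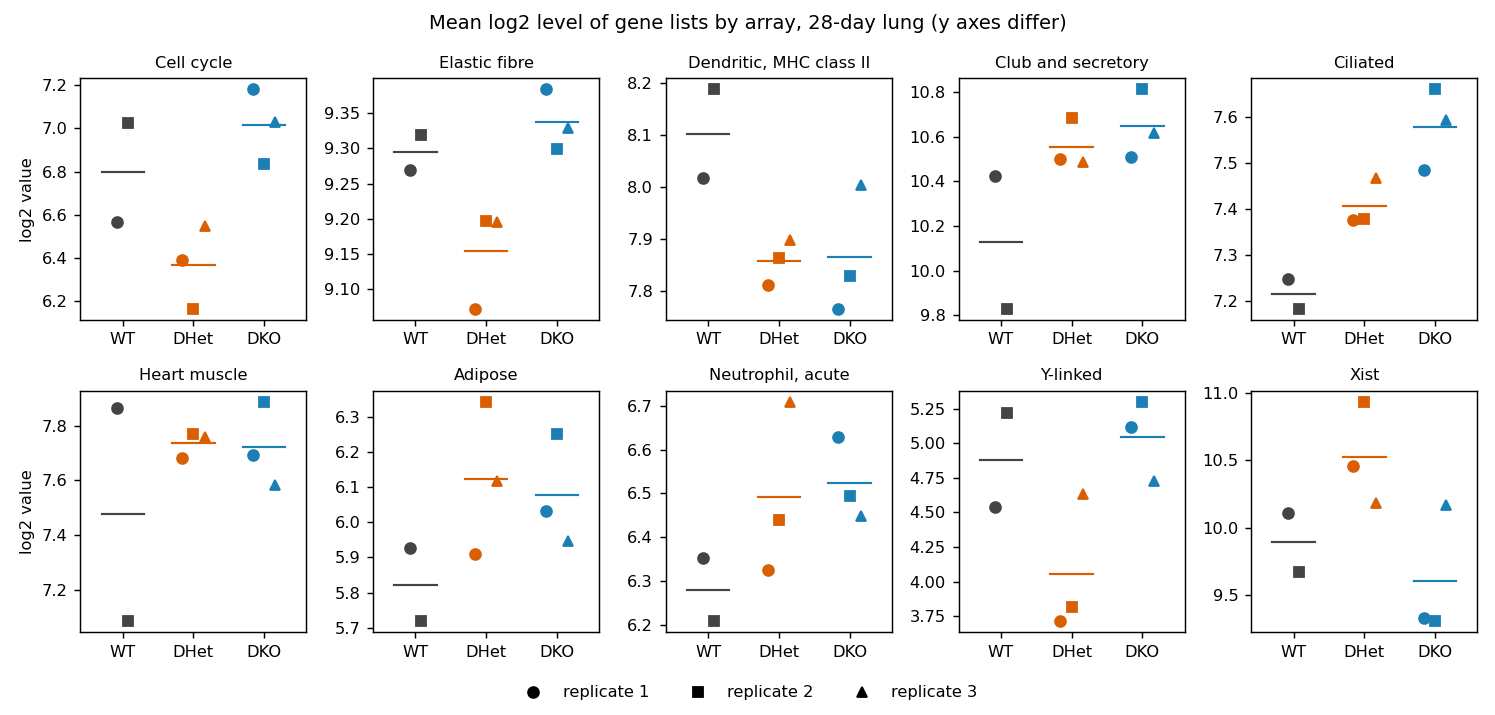
Mean log2 level of 8 gene lists, of 9 Y-linked probe sets and of Xist in every 28-day array; lines are group means and each panel has its own scale. The cell cycle and elastic fibre means of the DHet arrays lie below all WT and DKO arrays, WT array 2 is low for club and heart muscle genes, and DHet arrays 1 and 2 are lowest in Y-linked level.

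Markers of the lung's main cell types showed the tissue to be lung in all arrays and differed little. The mean of 18 alveolar type 2 genes was 11.95 to 12.02 over the 5 arrays, and its median difference was -0.00. For 15 alveolar type 1 genes the median was 0.14, for 24 endothelial genes 0.02 and for 18 lipofibroblast and matrix fibroblast genes 0.03. Among 17 ciliated cell genes 5 had an unadjusted p below 0.05, all higher in DHet, where 632 of all 18193 genes were higher. The ciliated median was 0.19, and no member was called. Rsph1 and Ccdc153, parts of the ciliary axoneme, stood at 7.35 to 7.41 and 8.40 to 8.43 in WT and at 7.63 to 7.86 and 8.78 to 8.80 in DHet. The ciliated mean was 7.25 and 7.18 in WT and 7.38, 7.38 and 7.47 in DHet. Heart muscle genes had a median of 0.26, which was -0.12 without WT array 2 and 0.71 without WT array 1.

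Genes of fat, stress hormones and inflammation lay higher in some DHet arrays without a call. Adipoq, the fat cell hormone adiponectin, stood at 5.26 and 4.46 in WT and at 5.72, 6.63 and 6.44 in DHet (1.40, adjusted p = 0.192). Of 9 adipose genes measured, 2 were set apart higher, beside 0.231% of all genes. The list mean was 5.93 and 5.72 in WT and 5.91, 6.34 and 6.12 in DHet. Among 17 glucocorticoid-responsive genes 4 were set apart higher (Zbtb16, Ddit4, Errfi1 and the clock gene Per1), beside the same share of all genes. The median was 0.27. Zbtb16 stood at 9.88 and 10.28 in WT and at 10.91, 10.98 and 10.80 in DHet (0.81, adjusted p = 0.974). The neutrophil proteins S100a8 and S100a9 stood at 10.82 and 10.22 in DHet array 3, beside 9.42 to 9.49 and 8.52 to 8.65 in the other DHet arrays and 8.67 to 9.39 and 7.65 to 8.37 in WT, so the difference lay mainly in that array. Over 22 interferon response genes the median was 0.11, and over 15 T and NK cell genes 0.10.

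DHet lungs were next compared with the midpoint of WT and DKO, the level a purely additive gene dose would give on the log2 scale. By limma, 170 probe sets were off the midpoint (0.377%), 77 higher (0.171%) and 93 lower (0.206%). The DHet mean lay beyond both other groups in 163 of them, 75 higher and 88 lower, and between them in 7. In 99 of the 170, all DHet arrays lay beyond every WT and DKO array, 41 above and 58 below. The 170 were chosen by distance from the midpoint in these same arrays, so lying beyond both groups is favoured by that choice. No share over all probe sets was counted. The DHet mean was nearer to WT than to DKO in 161. This does not show that DHet equals WT, and a call here uses the same WT arrays as the comparison above. The count was 53 without WT array 2, 239 without WT array 1, 84 without DHet array 1, and 17 with either the Y-linked level as a covariate or DHet represented by array 3.

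The probe sets with the smallest p were mostly DKO differences that DHet lacked. Cdk19, a kinase of the Mediator complex, stood at 8.91 and 9.20 in WT, at 8.75 to 9.0 in DHet and at 11.03, 10.94 and 10.97 in DKO (-1.15 from the midpoint, adjusted p = 6.44e-05 by limma). Ntrk2, the receptor for brain-derived neurotrophic factor, stood at 7.66 and 7.83 in WT, at 7.51 to 7.57 in DHet and at 9.28 to 9.61 in DKO (-1.08 from the midpoint). Gpr182, an endothelial receptor, stood at 8.46 and 8.42, at 8.39 to 8.50 and at 6.60 to 6.97 (0.84 from the midpoint). In each of these 3 the DHet arrays lay near WT and far from DKO. Rrad, a small GTPase, stood at 6.30 and 6.32 in WT, at 5.90 to 6.09 in DHet and at 7.35 to 7.50 in DKO, and Mark1, a microtubule kinase, at 5.14 and 5.19, 4.65 to 4.86 and 5.89 to 5.91 on probe set 1425510_at. In both, DHet lay on the far side of WT from DKO. The brighter Mark1 probe set 1425511_at lay below the midpoint by 0.53, beside 0.74 on the first.

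Efnb2, the arterial ligand ephrin-B2, differed in the other way. It stood at 8.33 and 8.15 in WT, at 8.83, 8.66 and 8.86 in DHet and at 7.79, 8.13 and 8.06 in DKO on probe set 1449548_at, above both groups (0.67 from the midpoint, adjusted p = 0.000428; 0.55 from WT, adjusted p = 0.109). The brighter Efnb2 probe set 1419638_at stood at 10.01 and 10.08 in WT, at 10.21, 10.25 and 10.51 in DHet and at 9.54 to 9.85 in DKO. It gave smaller differences, 0.45 from the midpoint (adjusted p = 0.0285) and 0.28 from WT (adjusted p = 0.816). Eln lay below the midpoint by 0.62 (adjusted p = 0.00941). Of the 27 cell division genes, 5 lay below the midpoint with a call (Ccnb2, Cdc20, Cdk1, Cenpf and Prc1) and none above, beside 0.297% of all genes called lower. Cdc20 lay below it by 0.79 (adjusted p = 0.00103), with DKO arrays at 8.85, 8.37 and 8.53. Of 15 T and NK cell genes, Ccl5, Gzma and Nkg7 were above the midpoint, beside 0.203% of all genes called higher. Nkg7, a granule protein of cytotoxic cells, stood at 7.11 and 7.08 in WT, at 7.84, 7.05 and 7.16 in DHet and at 5.86 to 6.26 in DKO. Of 24 endothelial genes, Ednrb, Gpr182 and Plvap were above it and Sox17 below.

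**Figure D5:**
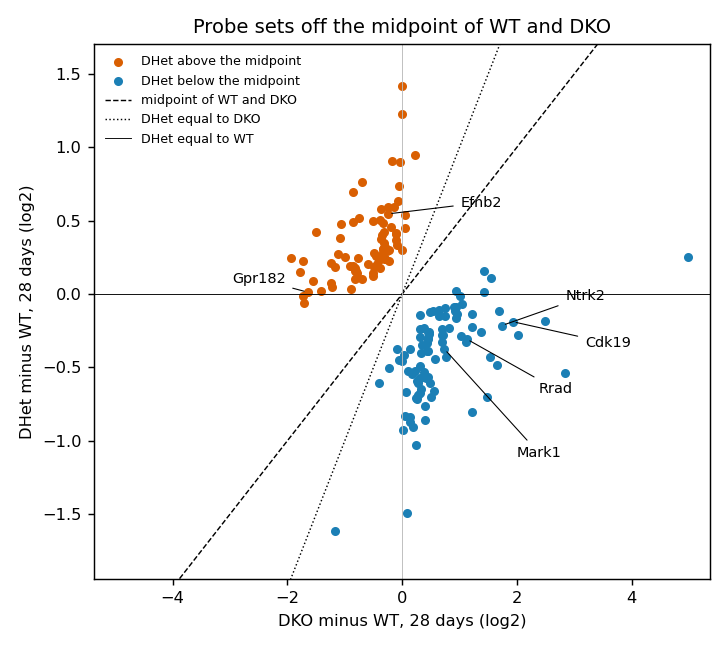
DHet minus WT against DKO minus WT (both log2, sharing the WT arrays) for the 170 probe sets off the midpoint; the dashed line is the midpoint and the dotted line marks DHet equal to DKO. Points lie mostly above the zero line on the left and below it on the right, away from the dashed line by the rule that chose them.

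The DHet difference from WT was set against that of the younger ages, which share no arrays with it. The titles and the age fields of those samples give the 2 younger ages the other way round, so they are called by title, 8 day and 1 day, and no order is read from them. DHet against WT held 14 calls in the set titled 8 day (0.0311%) and 1189 in the set titled 1 day (2.64%). A moderated F test by limma found 54 probe sets whose DHet difference varied among the 3 sets (0.12%). Against the set titled 8 day alone, 14 differed from 28 days (0.0311%), and against the set titled 1 day 0 did, where 4952 had an unadjusted p below 0.05 by limma. Cd209a was among the 54: its difference of -1.27 at 28 days stood beside 0.05 and -0.08 in the sets titled 8 day and 1 day (adjusted p of F = 0.00742). Mgl2 gave -0.77 beside 0.24 and -0.08 (adjusted p of F = 0.0404). The 28-day difference of Npas2 was not shown to vary (adjusted p of F = 0.0800), nor that of Wdfy1 (0.0668), Sptlc1 (0.0668), Cd209b (0.125) or Abhd1 (0.421). By limma, Abhd1 was higher by 0.47 in the set titled 8 day (adjusted p = 0.125) and by 0.39 in that titled 1 day (0.0363). Wdfy1 differed there by -0.16 (adjusted p = 0.972) and 0.67 (0.0397). No other probe set called at 28 days was called in a younger set.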

How the data were processed

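Lung RNA pooled from 3 animals per array was labelled by 3' one-cycle amplification and hybridised to Affymetrix arrays, per the labels' protocols. The values are the deposited log2 probe set levels that the authors made (range 2.68 to 14.8), and how they were summarised and normalized is not given in the sources used here. No scanner files were used, so background correction and slide were not varied. Of 45101 probe sets, 64 controls were left out. Of the 45037 tested, 34945 name 1 gene, 932 several and 9160 none, and 34741 were matched through Entrez identifiers, giving 18193 genes.

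All 26 arrays were fitted in 9 groups of genotype by titled age by lmFit and eBayes of limma 3.58.1 under R 4.3.3 (17 residual and 5.50 prior degrees of freedom), so the spread per probe set is shared over groups. P-values were adjusted by Benjamini-Hochberg over all probe sets and called below 0.05. Contrasts were DHet against WT, DHet against the midpoint of WT and DKO, and an F test of DHet minus WT among the age sets. The number of arrays limits the precision. The script was tested on simulated data: of 67 probe sets changed by 0.5 log2 in DHet against WT, 55.2% were recovered among 45037, and of 67 changed by 1, 95.5%. A further 66 were changed by 2, and 9 unchanged probe sets were called. Far more probe sets passed there than in the data, which makes the adjusted threshold easier to reach. These shares check the script and do not measure the power of the comparison.

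The comparison and the 43 gene lists (675 of 718 members measured) were chosen with earlier results of these data known, so no list is independent support. Named are all probe sets of Fgfr3, Fgfr4, Eln and Igf1, and every called probe set. Also named are up to 12 per direction without overlap and with an unadjusted p below 0.01, at most 4 per list by smallest p, and 6 per further test. A few list members outside this rule are named after their values were seen. Promoter windows are from RefSeq, build GRCm38.p6. Alternatives were a filter on low levels, quantile normalization, median centring, trend and robust moderation, array weights, a replicate block, fewer arrays in the fit and leaving out each array. The Y-linked level as a covariate and DHet represented by array 3 were chosen after seeing the data.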

Additional observations from a re-analysis of the deposited data

Results flagged for a closer look

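For these probe sets the difference between DHet and WT varied among 3 sets of arrays (28 days, titled 8 day, titled 1 day), by limma's moderated F test with Benjamini-Hochberg adjustment. Differences are given in that order of sets, as log2. The age fields of the younger sets contradict their titles, and the sets share no arrays.

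In 4 of them the 28-day difference was the largest in size, although none of the 4 was shown to differ from the set titled 1 day (adjusted p of 0.0705 to 0.183). Cd209a gave -1.27, 0.05 and -0.08 (adjusted p of F = 0.00742) and Mgl2 gave -0.77, 0.24 and -0.08 (0.0404). Efnb2 gave 0.55, -0.26 and -0.04 (0.0399), and probe set 1427803_at, which names no gene, gave 0.54, -0.12 and -0.04 (0.0242). 

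For the rest the largest difference lay in a younger set. Pisd-ps3, a pseudogene of phosphatidylserine decarboxylase, gave 0.92, -1.10 and -0.22 (0.0309), with opposite signs at 28 days and in the set titled 8 day. Cd59a, an inhibitor of the complement membrane attack complex, gave 0.03, -0.99 and 0.34 (0.000241). Ctse, the protease cathepsin E, gave -0.15, -1.89 and -0.12 (0.000241). Nnt, the mitochondrial transhydrogenase, gave 0.20, -1.25 and 0.64 (0.000257), and Cdk5rap1 gave 0.41, -0.82 and 0.73 (0.00390). Like Wdfy1, Nnt is on the list of genes whose levels vary between inbred strains, and the part of strain was not tested. Aldh1a3, an enzyme of retinoic acid synthesis, gave 0.06, 0.21 and -0.61 (0.00784).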

How the results depend on the processing

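Of the 9 calls in DHet against WT, of the 54 among the age sets and of the 170 off the midpoint, counts stayed within 1.5 times under the filter on low levels, quantile normalization, median centring, and trend and robust moderation. Array weights gave 175 among the sets and 334 off the midpoint. A fit of the 28-day arrays alone gave 0 against WT by limma (2794 at an unadjusted p below 0.05) and 91 off the midpoint, and a fit of the 2 groups alone gave 0. With the Y-linked level as a covariate the counts were 1, 19 and 17, and with DHet represented by array 3 they were 2, 15 and 17. Leaving out each array in turn gave 1 to 46, 13 to 136 and 53 to 239. Median centring moved the share of higher calls off the midpoint from 77 of 170 to 88 of 176.

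Replicate numbers are shared by the groups, and the labels do not say what a number stands for. At 28 days same-numbered arrays correlated in their deviations at -0.162 and -0.236 for DHet with WT, at -0.298 to 0.028 for DHet with DKO, and at 0.122 and 0.17 for WT with DKO. Over all sets r ran from -0.298 to 0.504, and no pair of groups with 3 shared numbers had every r above 0.1, so the numbers were not taken to pair the arrays. With the replicate block the counts were 3, 21 and 131, with Cd209a and Mgl2 called.

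Receptor differences near 0 changed sign under some settings; the cause was not tested. Fgfr4 probe set 1427776_a_at, at 0.0001 in the fit as reported, gave -0.0196 after quantile normalization, -0.000374 after median centring, -0.141 with the replicate block, -0.0411 with the Y-linked covariate, and -0.167 to 0.305 without single arrays. Fgfr4 probe set 1418596_at gave -0.0144 with the Y-linked covariate and -0.0159 to 0.163 without single arrays. Fgfr4 probe set 1427845_at gave -0.122 with DHet represented by array 3 and -0.0422 to 0.135 without single arrays. Fgfr3 probe set 1425796_a_at gave -0.150 to 0.0103 without single arrays.

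The limits are the 2 WT pools, the unequal Y-linked level of the pools and the unstated strain of the mutants, whose part was not tested. Each of the 8 calls besides Cd209a was lost without WT array 2, with a smaller difference of the same sign (Wdfy1 0.95 from 1.19, Abhd1 0.61 from 0.76, Npas2 -1.41 from -1.62, Sptlc1 -0.79 from -0.92, Mgl2 -0.54 from -0.77, Cd209b -0.38 from -0.55, 1427803_at 0.45 from 0.54, 1437136_at 0.69 from 0.90).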

Other observations

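Some genes off the midpoint of WT and DKO at 28 days are named here after their values were seen. Rgs5, a pericyte gene, had means of 7.86 in WT, 7.16 in DHet and 9.33 in DKO, on the probe set 1.44 below the midpoint (adjusted p = 0.000428 by limma). Mest, an imprinted gene of growing mesenchyme, had means of 8.50, 8.07 and 9.26. Ms4a6d, a myeloid membrane protein, had means of 5.31, 4.38 and 5.32 on probe set 1419598_at and of 6.12, 5.28 and 6.25 on the brighter 1419599_s_at, with DHet below both groups on each. Lrat had means of 8.58, 9.35 and 7.89 on probe set 1444487_at, with DHet above both. Of 18 macrophage genes, C1qa, C1qc and Ctsk were below the midpoint and none above, beside 0.297% of all genes called lower and 0.203% called higher. Of 22 interferon response genes, Bst2 and Gbp6 were above it and none below, beside the same shares. Of the Y-linked probe sets, 2 of Uty were below it.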
